A study of Homo sapiens with 3 samples.

Results

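Common fragile sites are chromosome regions that break or gap when DNA replication is slowed, and many of them lie inside very long genes. Here HMGA1 occupancy was described over 5 such genes, FHIT, WWOX, LRP1B, MACROD2 and CSMD1, taken as fixed intervals of the hg19 build that use no measured value. A member peak was one whose summit, its highest base, lay in one of these intervals. Of 385953 HMGA1 peaks called over input DNA, 1122 were members, and of 263033 called over histone H3, 688 were. The 5 intervals cover 8.63 Mb, and each was set against the 2 Mb on either side.

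The cells were DAMI, an established leukaemic line with the disease state given as MPN/AML, grown in RPMI medium with fetal bovine serum. All 3 chromatin immunoprecipitation sequencing libraries came from this line with no treatment named: an HMGA1 ChIP, a histone H3 ChIP and an input DNA made without antibody, 1 library each. Both peak lists use the same HMGA1 library and differ in the control, input DNA for one (the input list) and H3 for the other (the H3 list). A peak found in both lists is therefore not a replicate, there is no replicate error and no p-value is given. Intervals cover counting error only, and since neighbouring peaks cluster they are narrower than a replicate would show. Peak lists hold no expression values, so whether these genes or any cell type markers were expressed was not measured.

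HMGA1 is a small architectural chromatin protein whose AT-hooks bind the minor groove of AT-rich DNA. Fragile site genes are long, replicate late and have few replication origins inside them, and stretches rich in A and T have been linked to their instability. FHIT, a diadenosine triphosphate hydrolase, spans FRA3B, and WWOX, an oxidoreductase with WW domains, spans FRA16D. Both are regarded as tumour suppressors that are often lost by deletion in cancer. LRP1B is a large endocytic receptor of the low-density lipoprotein receptor family, MACROD2 removes ADP-ribose from proteins, and CSMD1 is a membrane protein with CUB and sushi domains that restrains complement. LRP1B and CSMD1 are best known from the brain.

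The genes differed widely in the number of HMGA1 peaks they held. Peak density over input ran from 320.5 per Mb in LRP1B (609 peaks, chromosome 2 from 140988996 to 142889270, 95% Poisson interval 295.5 to 347.0) to 26.95 per Mb in WWOX (30 peaks, chromosome 16 from 78133327 to 79246564, interval 18.2 to 38.5). CSMD1 followed LRP1B with 118.0 per Mb (243 peaks, chromosome 8 from 2792875 to 4852328, interval 103.6 to 133.8). MACROD2 had 77.3 per Mb (159 peaks, chromosome 20 from 13976146 to 16033841, interval 65.7 to 90.3). FHIT had 53.9 per Mb (81 peaks, chromosome 3 from 59735036 to 61237133, interval 42.8 to 67.0), and its interval just overlaps that of MACROD2. The intervals of all other neighbours in this order did not overlap. An overlap does not show that 2 genes are alike, and the ratio of FHIT to MACROD2 was not computed.

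Over H3 the order of the genes was the same. LRP1B held 464 peaks (244.2 per Mb, interval 222.5 to 267.4). CSMD1 held 108 (52.4 per Mb, interval 43.0 to 63.3), MACROD2 67 (32.6 per Mb, interval 25.2 to 41.4), FHIT 38 (25.3 per Mb, interval 17.9 to 34.7) and WWOX 11 (9.88 per Mb, interval 4.93 to 17.7). LRP1B alone supplied 54.3% of the members over input and 67.4% over H3, which weights any total over the 5 genes towards LRP1B. Peaks covered 13.0% of the bases of LRP1B over input and 0.776% of those of WWOX.

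**Figure D1:**
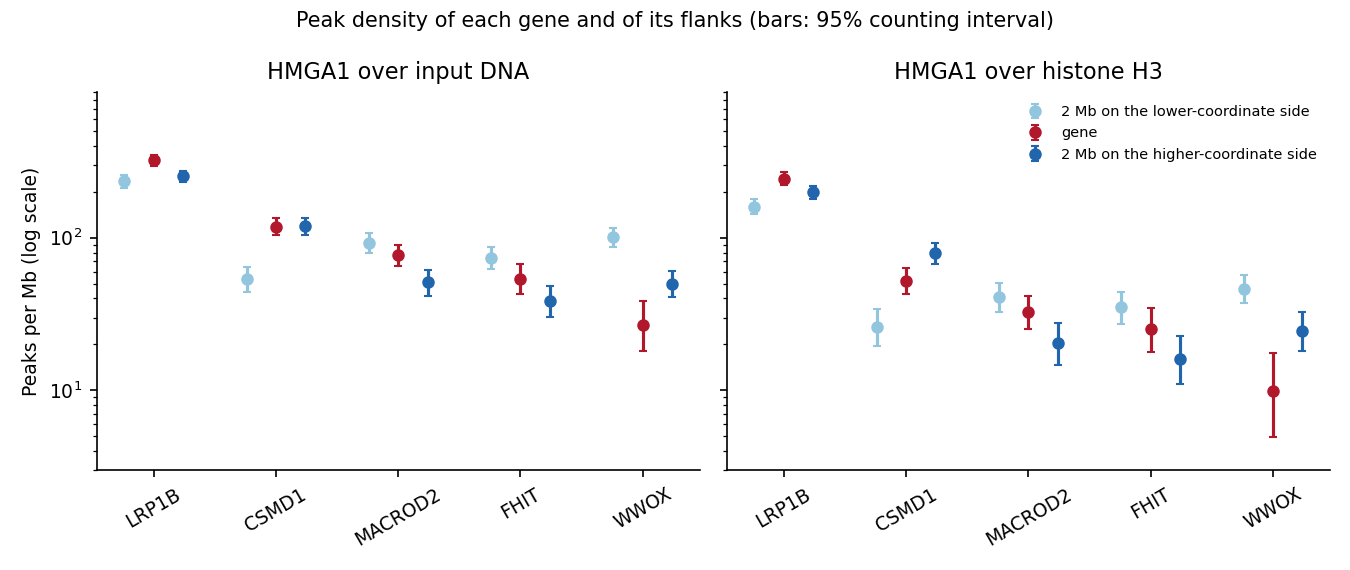
Peaks per Mb (log scale) in each gene (red) and in the 2 Mb on its lower-coordinate (light blue) and higher-coordinate (dark blue) sides, for peaks over input DNA (left) and over histone H3 (right). Points are single values from 1 HMGA1 library and bars are 95% Poisson intervals. LRP1B lies above both of its sides and WWOX below both, whereas the other genes do not lie above or below both sides beyond the intervals.

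Of the 5 genes, WWOX was set apart from its surroundings by a lower density. Its density was 0.357 times that of its flanks over input (exact interval 0.237 to 0.52) and 0.278 times over H3 (0.136 to 0.513). WWOX was the 1 gene of 5 that was lower than its flanks by 1.5 times or more, in both lists. Such a difference was seen in 14.9% of 1841 windows of 1.5 Mb tiled along the autosomes and X with peaks in the window and its flanks, over input, and in 19.6% of 1839 windows over H3. None of the 5 was higher by 1.5 times or more, against 10.3% of windows over input and 13.2% over H3. A count of 1 in 5 genes is near these shares and is no result about these genes as a group. The size of the WWOX difference was uncommon: 0.923% of windows had a lower ratio over input and 1.14% over H3.

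The sparse stretch around WWOX did not stop at the ends of the gene. RefSeq places CLEC3A below WWOX, DYNLRB2 above it and MAF inside or overlapping it. In the 0.5 Mb next to WWOX there were 15 input-list peaks on the lower-coordinate side and 14 on the higher-coordinate side. Counts then went up with distance. On the lower side the next 3 steps of 0.5 Mb held 28, 56 and 103 peaks, and on the upper side 23, 29 and 34. With flanks of 1 Mb the density of WWOX over its flanks was accordingly 0.674 over input and 0.637 over H3, so the low ratio rests in part on the outer flanks. With peak-free stretches of 50 kb or more taken out of gene and flanks, it was 0.581 over input and 1.08 over H3, where 9.97% of WWOX was left. By its own density, which does not use the flanks, WWOX was denser than 5.38% of the windows over input and 5.6% over H3.

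LRP1B was the densest gene and lay above its surroundings. The density was 1.32 times that of the flanks over input (exact interval 1.19 to 1.46) and 1.37 times over H3 (1.21 to 1.54). It was above each side by itself: the lower side, which runs towards NXPH2, had 233.5 peaks per Mb over input, and the upper side, which runs towards KYNU, had 252.5. Of the 1.5 Mb windows, 94.4% were less dense over input and 94.5% over H3, and 82.2% had a lower ratio to their flanks over input. Density around LRP1B was lower in the outermost steps than next to the gene, the opposite of WWOX. The first 0.5 Mb on the 2 sides held 282 and 308 peaks per Mb over input, and the outermost 0.5 Mb held 194 and 140. With flanks of 1 Mb the ratio was 1.14 over input and 1.18 over H3. The control level differed as well: input was at its floor, the lowest level the peak caller uses, at 30.4% of the summits in LRP1B, at 36% on its lower side and at 5.54% on its upper side, and H3 at 59.5%, 51.4% and 27.8%. The part of this in the density difference was not tested.

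CSMD1 lay above its flanks with one control and level with them with the other. Over input its density was 1.37 times that of its flanks (1.16 to 1.62), and over H3 it was 0.999 times (0.785 to 1.27). Its sides were unequal. The lower-coordinate side, towards MYOM2, held 53.5 per Mb over input, and 26 with H3 as control. The upper side, towards MCPH1, held 119 and 79. CSMD1 was thus 2.21 times its lower side over input (1.75 to 2.80) and 0.992 times its upper side (0.826 to 1.19), and over H3 it was 0.664 times its upper side (0.515 to 0.853). With only peaks of at least 20 HMGA1 reads CSMD1 was below its combined flanks, at 0.657 times over input and 0.672 over H3. The control level changed along the upper side. Input was at its floor at 86.0% of the summits in CSMD1 and at 83.2% on the lower side. In the first 0.5 Mb above the gene this share was 88.7%, and in the next 3 steps 44.6%, 30.4% and 10.8%. The density over input in these upper steps, from the gene outwards, was 124, 166, 112 and 74 per Mb, so it did not fall at each step. The part of the input level in the density difference was not tested.

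MACROD2 and FHIT did not differ from their combined flanks beyond counting error. The ratio was 1.08 for MACROD2 over input (0.882 to 1.31) and 1.06 over H3 (0.774 to 1.44), but 0.639 and 0.658 with only peaks of at least 20 reads. It was 0.959 for FHIT over input (0.734 to 1.24) and 0.992 over H3 (0.665 to 1.45). In both genes the level lay between those of the sides. MACROD2, which holds the small gene FLRT3, lay between 92.5 per Mb on the side of SEL1L2 and 51 on that of KIF16B. FHIT lay between 74 per Mb on the side of CFAP20DC and 38.5 on that of PTPRG, a receptor-type tyrosine phosphatase gene that is its neighbour.

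**Figure D2:**
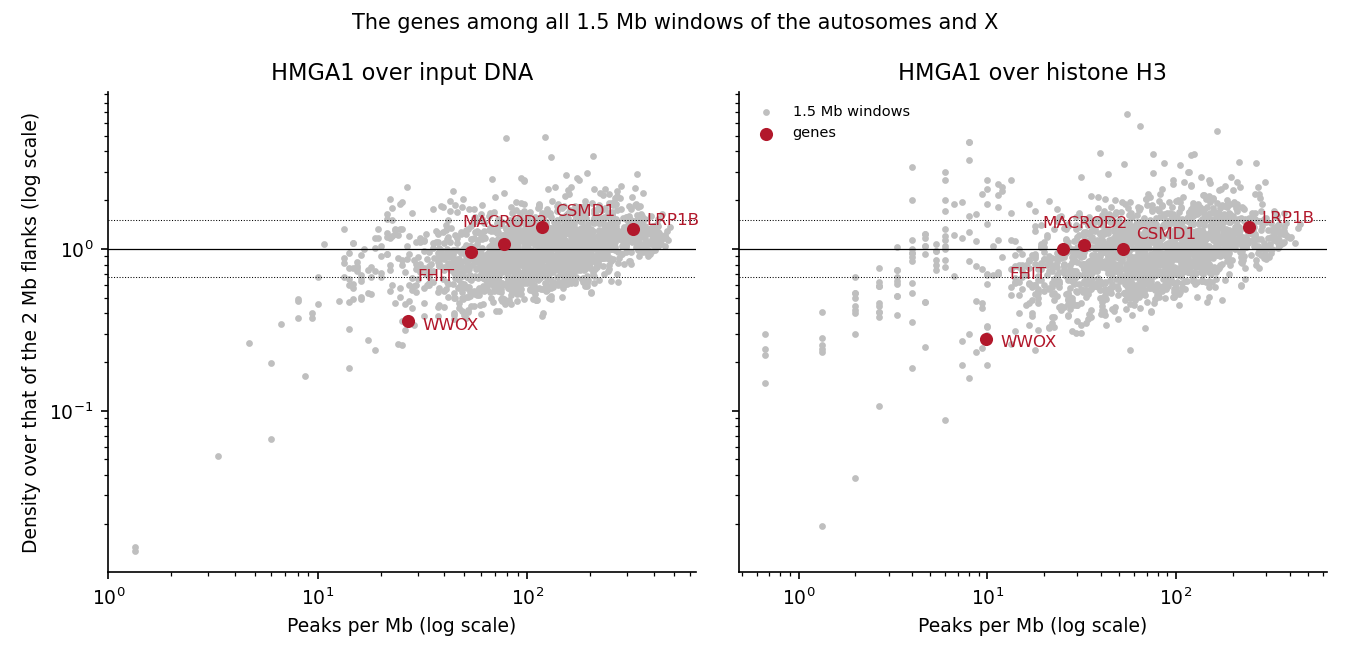
Each grey point is a 1.5 Mb window of the autosomes or X with peaks in it and in its flanks, and each red point is 1 of the genes. The x axis is peaks per Mb and the y axis is the density over that of the 2 Mb flanks (both log scales), with dotted lines at 1.5 times either way. WWOX lies at the lower edge of the windows in both lists, LRP1B at the dense end, and the other genes inside the cloud.

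The densest gene, LRP1B, also had the smallest share of summits at the control floor among the 5 genes. Control level and HMGA1 reads per summit were worked out from each peak's fold and p-value. The floor was 2.78 reads for input and 2.19 for H3. Input was at its floor at 30.4% of the summits in LRP1B, 74.1% in FHIT, 86.0% in CSMD1, 86.7% in WWOX and 88.7% in MACROD2. In the whole input list the share was 36.4%. The median input level was 3.01 reads in LRP1B, and in the other 4 genes it was the floor itself. In the H3 list the shares at the floor were 59.5% in LRP1B and between 72.7% and 92.5% in the others, all above the 42.9% of the whole H3 list, and the median H3 level was the floor in each gene. The other 4 genes were not in this order, since CSMD1 had more peaks than FHIT and a larger share at the floor. Copy number, mappability and the amount of HMGA1 cannot be told apart from these lists.

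Windows with a like control level give a closer comparison. The 409 windows of 1.5 Mb in which at least 80% of the input-list summits were at the floor had a median of 70.7 peaks per Mb (quartiles 37.3 and 125.3). Against these, MACROD2 at 77.3 per Mb was close to the median, CSMD1 at 118.0 was just under the upper quartile, and WWOX at 26.95 was under the lower quartile. FHIT fell with the 423 windows that had 50% to 80% at the floor, whose median was 96.7 (quartiles 61.7 and 137.7), and its 53.9 per Mb was under their lower quartile. LRP1B at 320.5 per Mb was above the upper quartile of 247.3 in the 316 windows with 20% to 50% at the floor. Only windows with at least 20 input-list peaks enter, which leaves out the sparsest. The windows of X that enter fall in the class with at least 80% at the floor and lie under its median. They pull the values of that class down, by an amount that was not computed.

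Peaks were spread along the whole of LRP1B, though they covered only 13.0% of its bases over input and 8.58% over H3. Every one of its 19 whole windows of 100 kb held between 21 and 45 input-list peaks (median 32) and between 16 and 38 H3-list peaks (median 25). The fullest window ran from 141288996 to 141388995 in both lists. The longest stretch with no input-list peak was 22.25 kb, and the median distance from one summit to the next was 2055 bp. Of neighbouring summits in LRP1B, 20.1% were at most 1 kb apart, against 15.3% in the whole input list. Such a share rises with density, so it does not by itself show tighter grouping in LRP1B. In 4 equal parts of the gene from the lower coordinate the density over input was 376.8, 345.2, 267.3 and 292.6 per Mb. The 2 parts at lower coordinates were fuller than the 2 others, and over H3 too (288.4, 290.5, 187.3 and 210.5 per Mb). The emptiest window, from 142288996 to 142388995, still held 21 input-list peaks.

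MACROD2 was the most unevenly filled gene over input. In its first 8 windows of 100 kb from the lower-coordinate end, where the gene starts, counts over input lay between 7 and 17. In the next 9 windows they lay between 0 and 6, and in the last 3 whole windows between 7 and 12. These 3 stretches, which were delimited after the counts were seen, had 132.5 (interval 108.5 to 160.3), 26.7 (17.1 to 39.7) and 86.7 (56.6 to 127.0) peaks per Mb over input. Over H3 they had 52.5 (37.8 to 71.0), 10 (4.57 to 19) and 50 (28 to 82.5). The variance of the window counts was 4.14 times their mean, whereas in the other 4 genes it was between 1.25 and 1.46 times over input. Over H3 it was 2.36 times in MACROD2 and 2.3 times in FHIT.

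The longest peak-free stretch in any of the 5 genes was in MACROD2, within the sparse part over input and beginning just before it over H3. It ran from 14793901 to 14969463 over input (175.6 kb) and from 14750809 to 15126372 over H3 (375.6 kb). The 1 window of MACROD2 without an input-list peak, from 14976146 to 15076145, lay just above the input-list stretch. Input was at its floor at 87.5% of the summits of the sparse part and at 86.8% in the part before it. Since the control is seen only at called peaks and never below the floor, a loss of DNA, poor mappability and the absence of HMGA1 cannot be told apart. Over input the 24 peaks of the sparse part had a median fold of 3.85, against 4.23 for the 106 peaks of the part before it. Over H3 the medians were 5.74 and 4.75, from only 9 and 42 peaks.

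WWOX and FHIT were sparse over much of their length. In WWOX the 11 whole windows held between 1 and 5 input-list peaks (median 2), and 4 of them had no H3-list peak. Its longest peak-free stretch was 126.8 kb over input, from 78862589 to 78989436, and 241.5 kb over H3, from 78803786 to 79045265. Stretches of at least 100 kb without a peak made up 31.1% of WWOX over input and 74.6% over H3, against 11% and 21.1% of the autosomes and X between their first and last peaks. Assembly gaps were not taken out of these chromosome shares and count in them as peak-free. In FHIT the windows held between 2 and 12 input-list peaks (median 5). The fullest, from 60135036 to 60235035, was the same in both lists, with 12 peaks over input and 9 over H3. No peak-free stretch in FHIT reached 100 kb over input (the longest was 77.75 kb, from 61135196 to 61212946), but 40.8% of the gene lay in such stretches over H3.

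CSMD1 was filled more evenly than MACROD2, with a variance of the window counts of 1.33 times their mean in both lists. It was not more even than WWOX, where this value was 1.25 over input and 0.8 over H3. The 20 whole windows of CSMD1 held between 5 and 18 input-list peaks (median 11.5) and between 1 and 10 H3-list peaks, and 4 equal parts of it had between 101 and 126.2 peaks per Mb over input. The emptiest window over input ran from 3992875 to 4092874, and the longest stretch without an H3-list peak, from 3996479 to 4148662, overlapped it. Its longest peak-free stretch was 85.6 kb over input and 152.2 kb over H3.

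**Figure D3:**
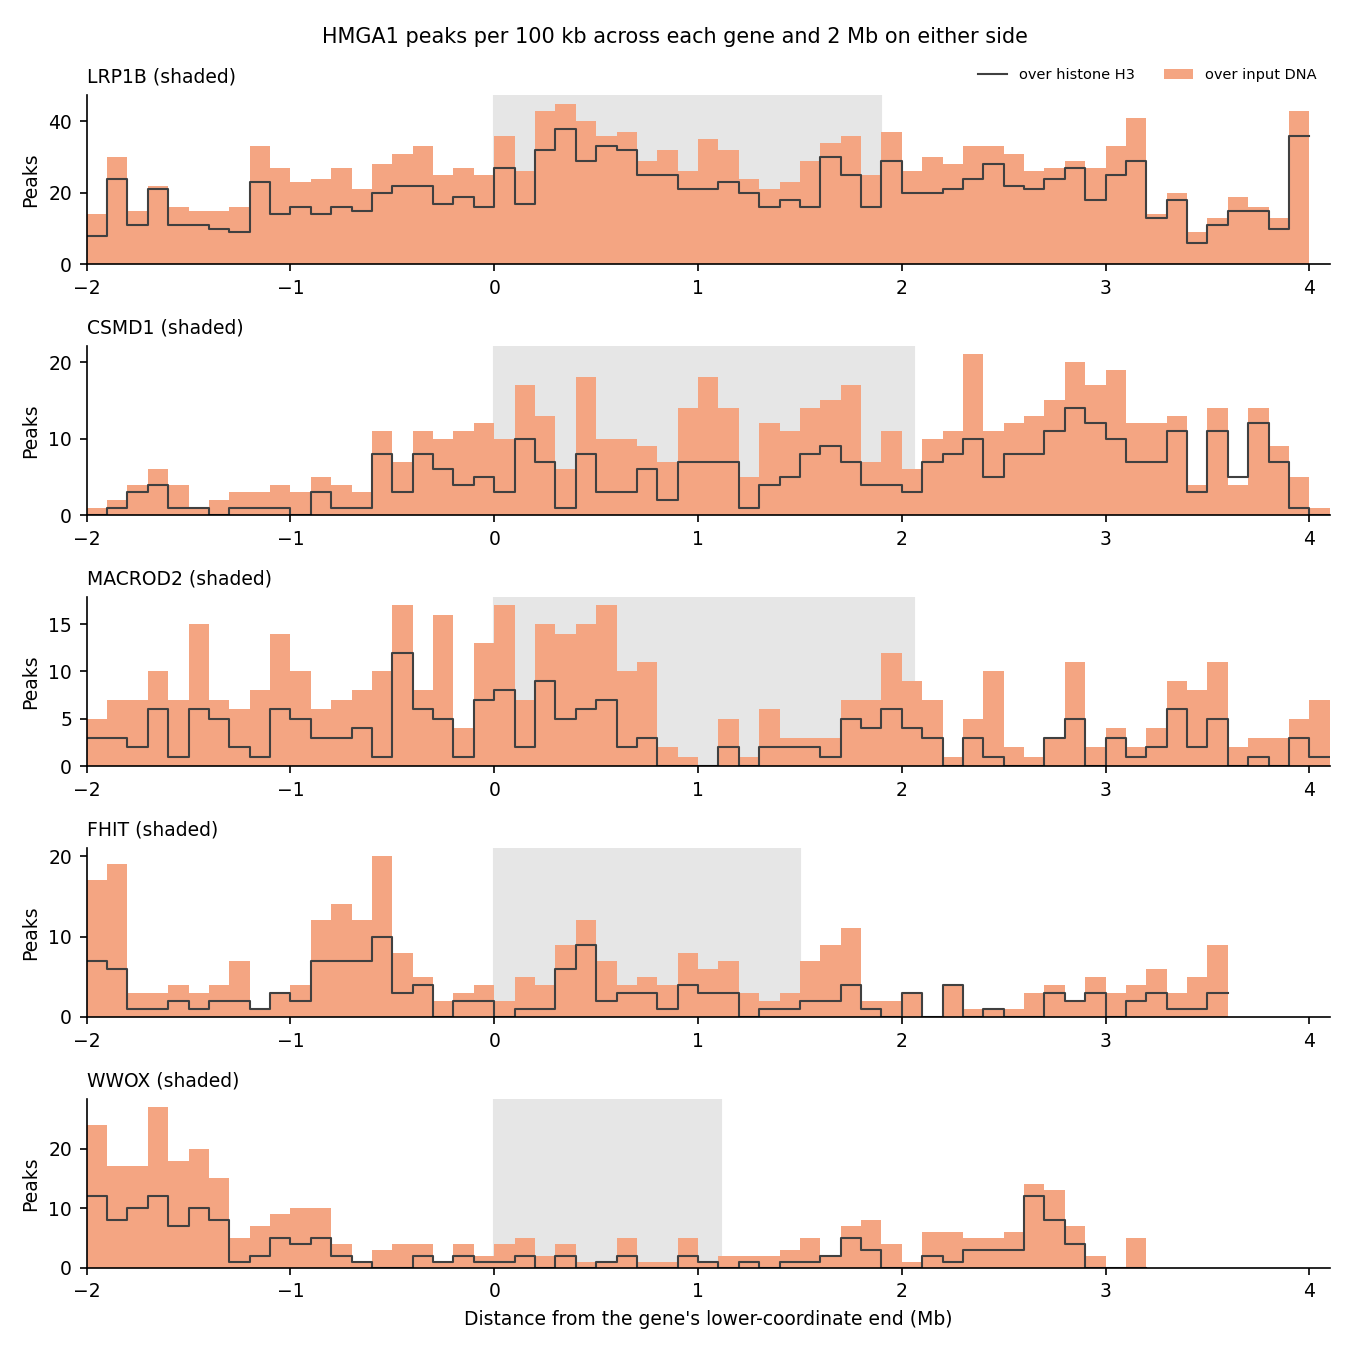
Number of HMGA1 peaks per 100 kb over input DNA (orange bars) and over histone H3 (dark line), from 2 Mb below to 2 Mb above each gene, with the gene shaded and the distance counted from its lower-coordinate end. LRP1B is filled throughout, MACROD2 has few peaks from 0.8 to 1.7 Mb, and the sparse stretch of WWOX runs on beyond both ends of the gene.

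The median fold of called peaks was similar in all 5 genes, and the genes differed much more in how many peaks they held. The tallest peaks were not spread alike. Over input, peaks with a fold of at least 8 made up 8.7% of those in LRP1B. In the other genes this share lay between 0.412% (CSMD1) and 3.33% (WWOX, 1 peak). The fold is the authors' value, the enrichment of HMGA1 over the control at the summit. The median fold over input was 4.76 in LRP1B (quartiles 3.70 and 5.96), 4.25 in WWOX (3.70 and 4.96), and 4.23 in FHIT, in MACROD2 and in CSMD1, against 4.5 in the whole list. These were 0.941 (CSMD1) to 1.06 (LRP1B) times the medians of the genes' own flanks. Over H3 the medians lay between 4.75 in MACROD2 and 5.25 in LRP1B and WWOX, against 5.25 in the whole list, and were 0.951 (MACROD2) to 1.1 (WWOX) times those of the flanks. Medians describe only peaks that passed the caller. A fold at the control floor is understated where the control itself lay lower. These values therefore do not rank the genes by HMGA1 strength.

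Of the 58 input-list peaks with a fold of at least 8 in the 5 genes, 53 were in LRP1B. They made up 8.7% of its 609 peaks (Wilson interval 6.72 to 11.2). The share in the whole input list was 7.23%, which lies inside that interval, and the flanks of LRP1B had 8.74%. FHIT, WWOX and CSMD1 had 1 such peak each and MACROD2 had 2. Over H3 the count was 53 of 464 in LRP1B (11.4%, 8.84 to 14.6), against 10.1% of the whole list. MACROD2 and WWOX had 1 each over H3, and FHIT and CSMD1 none. Over input CSMD1 at 0.412% (0.0727 to 2.29), FHIT at 1.23% (0.218 to 6.67) and MACROD2 at 1.26% (0.346 to 4.47) were below the whole list. Over H3 the upper limits of these 3 genes, 3.43%, 9.18% and 7.98%, were also below the share of the whole H3 list. In the flanks of CSMD1, FHIT and MACROD2 the share was 3.77%, 0.889% and 3.14% over input. Over H3 it was 6.67%, 0% and 4.88%. Only for CSMD1 did the share of the flanks lie above the interval of the gene, in both lists. Summits of these 3 genes lay mostly at the control floor, where a given number of reads has the highest fold the caller can give. The median number of HMGA1 reads over input was 15 in CSMD1, 16 in FHIT and 16 in MACROD2, against 19 in the whole list. The part of the reads in the low share was not tested.

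**Figure D4:**
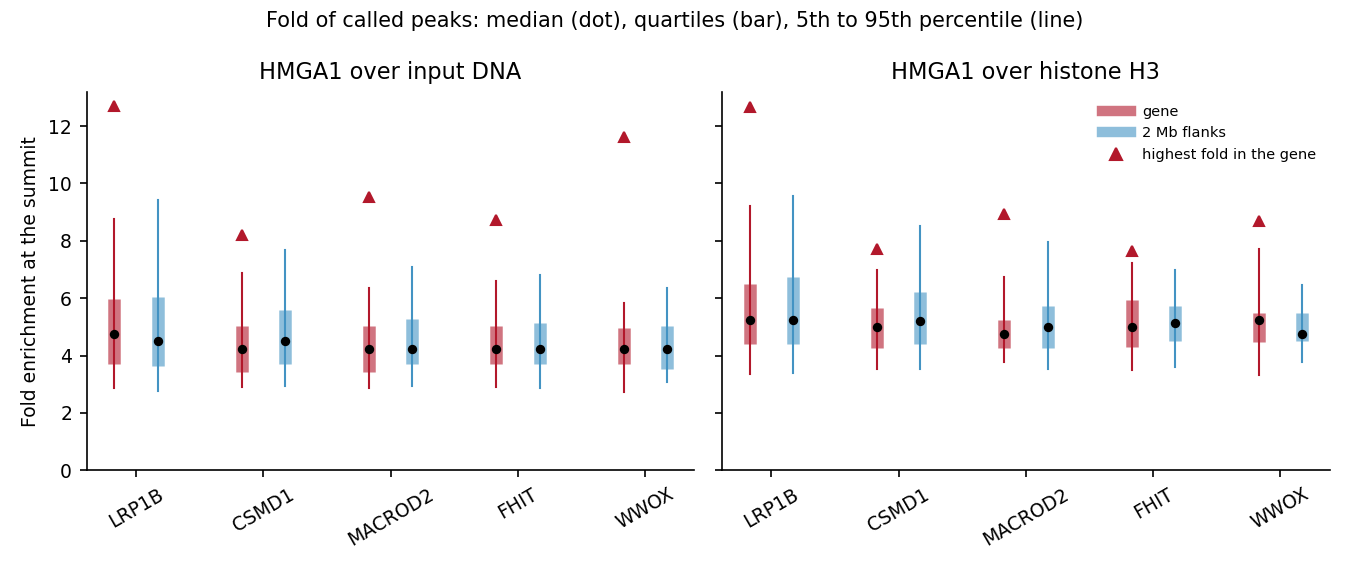
Fold enrichment of called peaks in each gene (red) and its 2 Mb flanks (blue), over input DNA (left) and histone H3 (right). Dots are medians, thick bars quartiles, lines the 5th to 95th percentile and triangles the highest fold in the gene. Medians of the genes lie between 4.23 and 5.25, and the highest single peak, at 12.7-fold over input, is in LRP1B.

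The tallest sites of the 5 genes were in LRP1B. The peak from 141807474 to 141807995 on chromosome 2 was 12.7-fold over input with 47 reads and 11.9-fold over H3. The peak from 142690225 to 142690840 was 12.5-fold over input with 50 reads, and at 12.65-fold it was also the tallest of the gene over H3. The widest input-list peak of LRP1B measured 1611 bp, which was the widest in the 5 genes, and its median width was 327 bp against 297 bp in the whole list.

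In each of the other 4 genes the tallest site was the same in both lists. In WWOX the peak from 78227589 to 78227950, which lies 94.4 kb inside the gene from its start, was 11.6-fold over input with 43 reads and 8.71-fold over H3. Over input it was taller than any peak in FHIT, MACROD2 or CSMD1. In MACROD2 the leading peak lay from 15950408 to 15950729 at 9.52-fold over input with 35 reads, and 8.95-fold over H3. In FHIT it lay from 60142530 to 60142952, inside the fullest window of that gene, at 8.73-fold with 32 reads and 7.63-fold over H3. In CSMD1 it lay from 3920763 to 3921040 at 8.20-fold with 30 reads and 7.72-fold over H3. Intron and exon positions of these sites were not analysed here, since no hg19 annotation was used.

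Which input-list peaks were also found over H3 followed the reads at the summit, which both lists share. Such a link follows in large part from the calling and is no trait of these genes. In LRP1B 446 of the 609 peaks over input overlapped one from the H3 list (73.2%, Wilson interval 69.6 to 76.6). The share was 46.9% in FHIT (36.4 to 57.7), 43.6% in CSMD1 (37.5 to 49.9), 42.1% in MACROD2 (34.7 to 49.9) and 36.7% in WWOX (21.9 to 54.5). In the whole input list it was 65.8%, so LRP1B was above it and FHIT, CSMD1, MACROD2 and WWOX below it beyond counting error. The flanks had 71.6% for LRP1B, 44.4% for FHIT, 58.8% for CSMD1, 42.2% for MACROD2 and 46% for WWOX. Only for CSMD1 did the share of the flanks lie outside the interval of the gene.

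With at least 20 HMGA1 reads at the summit, a number chosen after the values were seen, the shares were at or near 100% in each gene. All such input-list peaks of FHIT (19), WWOX (7), MACROD2 (23) and CSMD1 (44) had an H3-list peak, and 298 of 301 in LRP1B did (99%), against 96% in the whole list. Below 20 reads the shares were 48.1% in LRP1B (42.5 to 53.6) and between 17.4% and 32.4% in the other 4, against 37.3%. Peaks with at least 20 reads numbered 19 of 81 in FHIT, 7 of 30 in WWOX, 23 of 159 in MACROD2, 44 of 243 in CSMD1 and 301 of 609 in LRP1B. In the reverse direction every H3-list peak of FHIT, WWOX, MACROD2 and CSMD1 overlapped an input-list peak, as did 461 of 464 in LRP1B.

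Summits on the same base in both lists had the same HMGA1 reads in both, and their folds are only described here. Such sites had to be called over both controls. In each gene their median fold over input lay above that of all input-list peaks, in LRP1B 5.59 against 4.76. There were 199 such summits in LRP1B, with a median fold of 5.59 over input and 5.74 over H3. The other genes had 47 (CSMD1, 5.29 and 5.25), 37 (MACROD2, 5.024 and 5.002), 17 (FHIT, 5.29 and 5.56) and 9 (WWOX, 5.02 and 5.25). At these sites H3 exceeded its floor in 38.2% of cases in LRP1B, and input did in 73.9%. Both controls were at the floor at 16.6% of these sites in LRP1B and 75.7% in MACROD2. HMGA1 reads were multiplied by 0.787 in the H3 list, so a fold over H3 and a fold over input are on different scales.

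**Figure D5:**
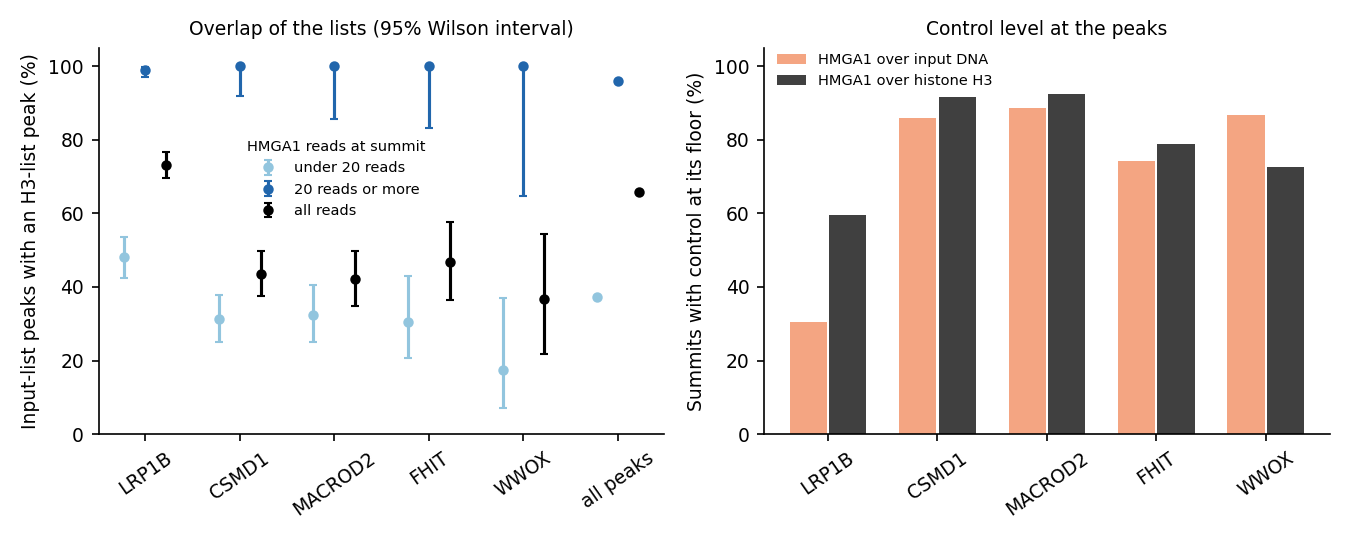
Left, share of input-list peaks that overlap an H3-list peak in each gene and in the whole list, by HMGA1 reads at the summit, with 95% Wilson intervals. Right, share of summits at which the control is at its floor, for both lists. With 20 reads or more all genes lie at 99% or above, and LRP1B has the smallest share of summits at the floor in both lists.

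The starts of FHIT, WWOX and MACROD2 had no HMGA1 summit close by. The orientation of these 3 genes came from RefSeq, and the gene start was taken as the matching end of the hg19 interval. No summit of either list lay within 5 kb of any of the 3 starts. The nearest input-list summit was 5300 bp inside WWOX (3.97-fold, 14 reads), 6176 bp upstream of FHIT (4.76-fold, 17 reads) and 9205 bp inside MACROD2 (4.61-fold, 20 reads). The nearest H3-list summit was at the same place for FHIT and MACROD2 and 88775 bp upstream for WWOX. At the densities of these genes few peaks would fall in any 10 kb, so this does not set the starts apart from the rest of the gene.

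The promoters at these starts are printed because AT-rich DNA is what HMGA1 binds. They are from RefSeq on GRCh38.p14, each 300 bp long on the strand of the gene (250 bp before to 50 bp after the start), and capitals mark every run of 5 or more bases that are all A or T, a search that gives the same matches on both strands. FHIT is chr3:61251403-61251702 on the minus strand, WWOX is chr16:78099404-78099703 on the plus strand and MACROD2 is chr20:13995266-13995565 on the plus strand. The intervals of the 2 builds differ in length by 2078 bp for FHIT, 224 bp for WWOX and 14 bp for MACROD2, so the starts may not be the same base.
FHIT: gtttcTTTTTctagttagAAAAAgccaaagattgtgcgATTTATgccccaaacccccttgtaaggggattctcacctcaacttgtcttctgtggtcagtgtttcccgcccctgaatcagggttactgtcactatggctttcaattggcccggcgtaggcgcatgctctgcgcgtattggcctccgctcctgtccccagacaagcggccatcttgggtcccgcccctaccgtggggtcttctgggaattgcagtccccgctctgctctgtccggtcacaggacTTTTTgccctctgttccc
WWOX: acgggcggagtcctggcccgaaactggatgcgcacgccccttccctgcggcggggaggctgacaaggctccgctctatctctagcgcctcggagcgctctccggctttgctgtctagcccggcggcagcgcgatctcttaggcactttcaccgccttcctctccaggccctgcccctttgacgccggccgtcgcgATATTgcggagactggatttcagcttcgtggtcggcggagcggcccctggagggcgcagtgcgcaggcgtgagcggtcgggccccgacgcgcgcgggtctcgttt
MACROD2: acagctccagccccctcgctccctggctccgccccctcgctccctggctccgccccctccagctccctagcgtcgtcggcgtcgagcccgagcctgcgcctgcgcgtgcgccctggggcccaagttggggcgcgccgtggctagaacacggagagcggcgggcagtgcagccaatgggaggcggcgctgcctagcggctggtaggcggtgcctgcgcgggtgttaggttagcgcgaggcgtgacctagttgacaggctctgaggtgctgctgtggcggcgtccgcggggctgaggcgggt

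The MACROD2 promoter has no such run and is 26.7% A or T. The WWOX promoter has 1 run, of 5 bases, and is 31.0% A or T. The FHIT promoter has 4 runs, the longest of 6 bases, and is 45.0% A or T. Of all 35116 RefSeq promoters of this length 76.5% hold at least 1 run, and their median is 41.3% A or T. The MACROD2 and WWOX promoters thus hold less A and T than the median promoter and the FHIT promoter slightly more. The match is a description of these letters and does not show where HMGA1 can bind.

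At the interval ends of the other genes, for which orientation was not taken, LRP1B had 6 input-list and 6 H3-list summits within 5 kb of its lower-coordinate end. Its upper end had 2 input-list summits within 5 kb and no H3-list summit. CSMD1 had no summit within 5 kb of either end.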

How the data were processed

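DAMI cells gave 3 libraries, 1 each for the HMGA1 antibody, the H3 antibody and input DNA. Peaks were called with MACS2 on hg19, per the submitters' processing notes (MACS2 version and aligner: not given in the sources used here). Per the peak names, 1 list per control was deposited. For each peak the authors deposited a fold ratio over the control, −log10 values of the p-value and of the q-value, and a score in whole numbers that was not used. Total read numbers are unknown. HMGA1 reads and control levels were recovered as the whole pileup that gave back the deposited −log10 p-value within 0.001, with the fold read as pileup plus 1 over control plus 1. This fitted 385953 of 385953 input-list peaks, and 263033 of 263033 H3-list peaks after multiplying the pileup by 0.787. The procedure was checked on simulated data.

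Members and lists were chosen with earlier results of these data known. The rule for named sites took the highest-fold and highest-q peak of each gene and list, the fullest and emptiest 100 kb windows and the longest peak-free stretch; windows that tied are given as ranges. The 3 stretches of MACROD2, the fold of at least 8 and the classes by reads were chosen after the values were seen. A further gene is not reported here. The planned list of other fragile site genes was not analysed here, since no hg19 annotation was used. Neighbouring genes are from RefSeq (GRCh38.p14), which held all 5 genes, and its promoter table gave the strand and promoter of 3. Density ratios carry exact conditional binomial 95% intervals, shares Wilson intervals and densities Poisson intervals. Windows of 1.5 Mb needed at least 1 peak in the window and in its 2 Mb flanks. Coordinates are 1-based. Alternatives were other flanks, stricter q-values and folds, other lengths, membership, overlap and window sizes, and at least 20 HMGA1 reads. Tables were made with pandas 2.3.3 and numpy 2.4.6 in Python 3.11.15, intervals with scipy 1.17.1, and figures with matplotlib 3.10.9.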

Additional observations from a re-analysis of the deposited data

How the results depend on the processing

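With 1 library per antibody no replicate could be left out. No paired analysis was possible because each antibody has a single library. Of 80 alternative density ratios 66 stayed inside the interval of the reported value, 12 left it and 2 with an interval that excluded 1 turned direction. Ratios whose interval held 1 also crossed it, in FHIT and MACROD2 in both lists and in CSMD1 over H3. FHIT over input went from 0.959 to 1.13 with a q-value minimum, and FHIT over H3 from 0.992 to 1.09 with covered bases. CSMD1 over H3 went from 0.999 to 1.08 with flanks of 5 Mb. With flanks of 1 Mb the ratio was 0.674 (input list) and 0.637 (H3 list) for WWOX, 1.14 and 1.18 for LRP1B, and 1.06 for CSMD1 over input. With flanks of 5 Mb it was 1.46 for LRP1B over input. Without peak-free stretches of 50 kb it was 0.684 for FHIT, 0.581 for WWOX and 1.04 for CSMD1 over input, and 1.08 for WWOX over H3, a change of direction in which 9.97% of that gene was left. With at least 20 HMGA1 reads, chosen after the data were seen, it was 0.639 and 0.658 for MACROD2 and 0.657 (turned) and 0.672 for CSMD1. The share of input-list peaks with an H3-list peak rose under a −log10 q-value minimum of 5 to 70% in FHIT, 58.8% in WWOX, 88.4% in LRP1B, 67.8% in MACROD2 and 70.4% in CSMD1. With at least 20 reads it was 100% in 4 genes and 99% in LRP1B, and with 50% of both peaks shared it was 67.5% in LRP1B. The median fold of LRP1B over its flanks was 0.984 over H3 under the same q-value minimum, and 19 of 20 fold values stayed inside their interval. The variance over mean in 50 kb windows moved by over 1.5 times in FHIT alone, to 0.949 and 1.52. Apart from the named loss of length, the cause was not tested. No peak of these genes had under 8 HMGA1 reads over input or 12 over H3, and weaker sites were not detectable.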
